A study of Mus musculus with 4 samples.

Results

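The regions described here are distal cohesin peaks that lie away from CTCF peaks in mouse limbs at E12.5. They were chosen by peak calls: autosomal RAD21 peaks of wild-type limbs that overlapped by at least 1 bp no CTCF peak of either TgN(38-40) replicate, and whose summit lay more than 1 kb from every protein-coding gene start. This left 3048 of 20364 autosomal wild-type RAD21 peaks, or 15.0%, called members below. Another 15407 peaks were equally distal but overlapped a CTCF peak, 784 lay at gene starts away from CTCF and 1125 lay at gene starts on CTCF.

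The TgN(38-40) limbs came from B6CBAF1 embryos that combined TgN(38-40)/Wt with del(CS38-40)-/-. These embryos are hemizygous for a HoxD fosmid inserted in chromosome 10, and both of their own copies of region CS38-40 on chromosome 2 are deleted. CTCF and RAD21 were each profiled there in 2 replicates by ChIPmentation, a ChIP protocol in which transposase adds the sequencing adapters on the beads, from 4 whole limbs. The wild-type RAD21 peaks came from 1 ChIP-seq library of whole limbs made in an earlier study, so genotype, protocol and study cannot be told apart in any comparison of the peak lists. Whole limbs mix mesenchyme, ectoderm, muscle precursors, vessels and blood, and a peak does not say which of these cells held it.

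Cohesin is a ring-shaped complex that holds DNA strands and extrudes chromatin loops, and RAD21 is the subunit that closes the ring. Extruding cohesin pauses at DNA-bound CTCF, which is why most cohesin peaks of mammalian cells coincide with CTCF. Cohesin is also seen where CTCF is missing, at active promoters and enhancers among other places. In budding yeast the cohesin loader and the related condensin complex gather at tRNA genes. These genes are transcribed by RNA polymerase III from a promoter inside the gene, whose B box is bound by TFIIIC.

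The lists differed in length. RAD21 replicate 1 of TgN(38-40) limbs held 4053 autosomal peaks and replicate 2 held 14459. The 2 CTCF lists held 23433 and 25726 autosomal peaks, and the wild-type RAD21 list 20364. Read numbers are not given in the sources used here, so a site missing from a list fell short of the calling threshold there and need not have been unbound. With 1 wild-type library there is no replicate spread, and all shares below are descriptions without a test.

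Members fell into 3 kinds by their sequence, a division chosen after the data were seen. The first was 100 members that overlapped a tRNA gene annotated by RefSeq, the second 1704 other members with a CTCF motif within 50 bp of the summit, and the third the remaining 1244. The 4 strongest tRNA members show what the first kind holds. Their genes are printed in the direction of transcription, on GRCm38 (mm10), with the B box letters GGTTCGA in capitals.
n-TRccg1 (tRNA-Arg, plus strand, chr11:107012866-107012938): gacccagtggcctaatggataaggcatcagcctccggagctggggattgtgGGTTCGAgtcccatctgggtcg
n-TNgtt14 (tRNA-Asn, minus strand, chr5:149229001-149229074): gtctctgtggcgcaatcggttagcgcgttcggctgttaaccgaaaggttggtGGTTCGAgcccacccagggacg
n-TLcaa1 (tRNA-Leu, plus strand, chr13:21200204-21200308): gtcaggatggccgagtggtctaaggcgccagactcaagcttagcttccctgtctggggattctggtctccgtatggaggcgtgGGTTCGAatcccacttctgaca
n-TLtaa3 (tRNA-Leu, minus strand, chr10:12922571-12922653): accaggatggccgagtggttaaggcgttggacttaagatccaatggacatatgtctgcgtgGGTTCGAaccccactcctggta
Wild-type RAD21 fold enrichment, which MACS2 computes as read coverage at the summit over the local background, was 6.18, 5.77, 5.74 and 5.50 at these members in the same order.

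Of the strongest members of the second kind, 4 are shown for their motifs of the CTCF type. The motif model, learned from CTCF peaks that are not members, has the consensus nnnCCACnAGnGGGCnnnn, where a letter is given if at least 60% of the training sites have it. Each sequence below is the best match, in capitals, with 20 bases on either side, printed on the motif's strand.
Shcbp1 member (plus strand, chr8:4868882-4868940): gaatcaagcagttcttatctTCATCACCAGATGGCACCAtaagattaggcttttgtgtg
Snx20 member (minus strand, chr8:88621618-88621676): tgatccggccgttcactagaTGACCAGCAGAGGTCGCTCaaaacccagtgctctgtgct
Il5ra member (minus strand, chr6:106645700-106645758): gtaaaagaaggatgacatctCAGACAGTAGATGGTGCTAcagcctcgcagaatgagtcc
Capn13 member (minus strand, chr17:73297088-73297146): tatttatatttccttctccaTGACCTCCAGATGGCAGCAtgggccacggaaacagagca
Members are named here after the protein-coding gene with the nearest start, which says nothing of the gene they act on. The scores of these matches were 17.4, 19.5, 13.6 and 19.2 in the same order, as log2 odds of the motif model over base composition.

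Of the strongest members of the third kind, 3 are shown for contrast, again chosen after their values were seen. Here the capitals mark the best-scoring 19 bases, all below the motif threshold of 6.90.
Sgip1 member (minus strand, chr4:102656688-102656746): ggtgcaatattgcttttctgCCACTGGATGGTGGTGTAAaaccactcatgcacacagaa
2410004B18Rik member (plus strand, chr3:145950230-145950288): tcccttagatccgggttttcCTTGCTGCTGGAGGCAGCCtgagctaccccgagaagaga
Myocd member (plus strand, chr11:65268402-65268460): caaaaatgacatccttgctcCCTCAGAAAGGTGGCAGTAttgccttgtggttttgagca
Their scores were -5.36, 2.19 and 4.42 in the same order, while wild-type RAD21 fold reached 7.49, 6.83 and 6.74. All 3 overlapped a peak of RAD21 replicate 2, while 13.7% of all remaining members and 66.3% of all autosomal wild-type RAD21 peaks did. These 3 lie in the 2 strongest of 4 bands of wild-type peaks by significance, where recurrence was higher. There the shares were 67.2% and 80% of remaining members, the latter of only 5. Over all autosomal wild-type RAD21 peaks of these bands they were 89.6% and 99.7%.

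Members were weaker than the distal RAD21 peaks on CTCF, in the values that also chose them as peaks. The median wild-type fold was 3.03 at members (quartiles 2.61 and 3.73) and 5.27 at distal peaks on CTCF (quartiles 3.75 and 7.23). By kind the medians were 3.47 at tRNA members, 3.31 at motif members and 2.66 at the remaining members. The weakest member had a fold of 1.33 and the strongest 10.9, against 2.00 and 13.7 at distal peaks on CTCF, so the groups overlapped widely.

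The cutoffs of the rule divided neighbouring values. Just inside the CTCF criterion, the members near Zadh2 and Bcat1 ended 4 and 8 bp from a CTCF peak, with wild-type folds of 2.38 and 4.01. Just outside it, the peaks near Gjd2 and Notch4 overlapped a CTCF peak by 2 and 6 bp, with folds of 2.24 and 2.33. Just inside the distance criterion, the members near Plpp3 and Fzd1 had summits 1001 and 1009 bp from the gene start, with folds of 3.50 and 2.84. Just outside it, the peaks at Trpc4 and Sox4 both had summits 997 bp from it, with folds of 2.70 and 2.23. Most members were far from these cutoffs. The median gap to the next CTCF peak was 20428 bp, and 193 members, or 6.33%, had a CTCF peak within 1 kb.

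The label of cohesin away from CTCF holds for the peak calls more than for the sequence. Of all members, 1710 held a CTCF motif within 50 bp of the summit at a score that 5% of flanking windows reached, which is 56.1% with a 95% exact binomial interval of 54.3 to 57.9 for counting error. The share was 88.7% at distal peaks on CTCF, 28.1% at gene starts away from CTCF and 80.8% over all autosomal wild-type RAD21 peaks. In windows 2 kb from the member summits it was 4.33%. Members with a motif had lower scores than distal peaks on CTCF with one, with medians of 13.4 and 17.5. The member median stood at percentile 15.7 of those distal peaks. At the stricter score that 1% of flanks reached, the shares were 35.9% at members and 80.2% at distal peaks on CTCF. Training sites of the motif model can lie under distal peaks on CTCF but not under members. The comparisons of these 2 groups are therefore not neutral and may lean toward higher scores on CTCF.

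**Figure D1:**
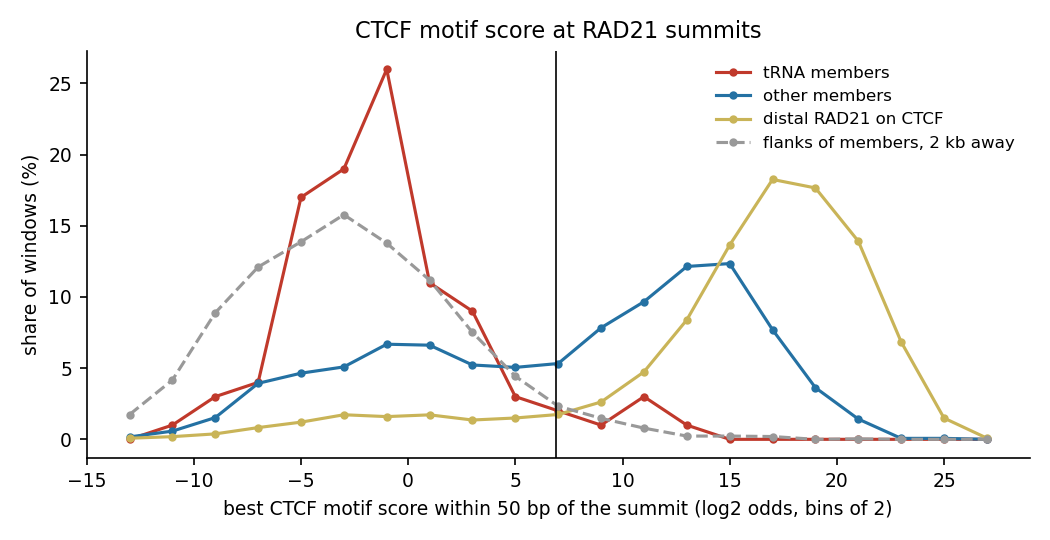
Share of windows (%) by best CTCF motif score within 50 bp of the summit (log2 odds, bins of 2), for tRNA members (red), other members (blue), distal RAD21 peaks on CTCF (yellow) and windows 2 kb from member summits (grey, dashed), with the threshold of 6.90 as a black line. Members not at tRNA genes have a high-scoring mode to the left of that of the peaks on CTCF, and tRNA members sit with the flanks.

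Motif position and strand had similar values in both groups. The centre of the motif lay a median of 19 bp from the summit at members and 20 bp at distal peaks on CTCF. It was on the plus strand in 51.3% of members with a motif and in 50.1% of distal peaks on CTCF with one. At tRNA members a motif was found in 6 of 100, close to the share in flanks. Lists of the CTCF libraries mapped to the custom genome, which carries the insertion, added a CTCF peak at 124 members on autosomes other than 2 and 10, among them 78 motif members.

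Recurrence was next examined in the RAD21 libraries of TgN(38-40) limbs, which the choice of members did not use. That choice did use CTCF lists of the same genotype and protocol, so the shares below are not fully independent of the rule. A peak of RAD21 replicate 2 overlapped 812 members, or 26.6% (95% exact binomial interval 25.1 to 28.2), against 77.5% of distal peaks on CTCF and 66.3% of all autosomal wild-type RAD21 peaks. A peak of RAD21 replicate 1 overlapped 124 members, or 4.07% (interval 3.395 to 4.83), against 23.7% of distal peaks on CTCF and 19.6% of all autosomal wild-type RAD21 peaks. Both replicates had a peak at 46 members, or 1.51%, against 23.4% of distal peaks on CTCF and 18.8% of all autosomal wild-type RAD21 peaks. The lower shares at members went with lower wild-type strength, since members with a replicate 2 peak had a median wild-type fold of 4.00 and those without one 2.82.

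The wild-type list was therefore divided by -log10 q into 4 bands of about equal size. In replicate 2 the shares at members were 10.6%, 40.1%, 74.3% and 94.3% from the weakest to the strongest band. At distal peaks on CTCF they were 30.4%, 62.8%, 91.3% and 99.8% in the same order. In each band the member share was the lower one, and in both groups it was higher in each stronger band. The strongest band held only 53 members.

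Among members, the share with a replicate 2 peak was higher where a motif was present. In the weakest band 16.5% of motif members and 5.75% of remaining members had a replicate 2 peak. In the second band the shares were 46% and 32.1%, and in the third 82% and 67.2%. Of the 812 members with a replicate 2 peak, 79.1% held a motif, against 47.8% of members without one.

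**Figure D2:**
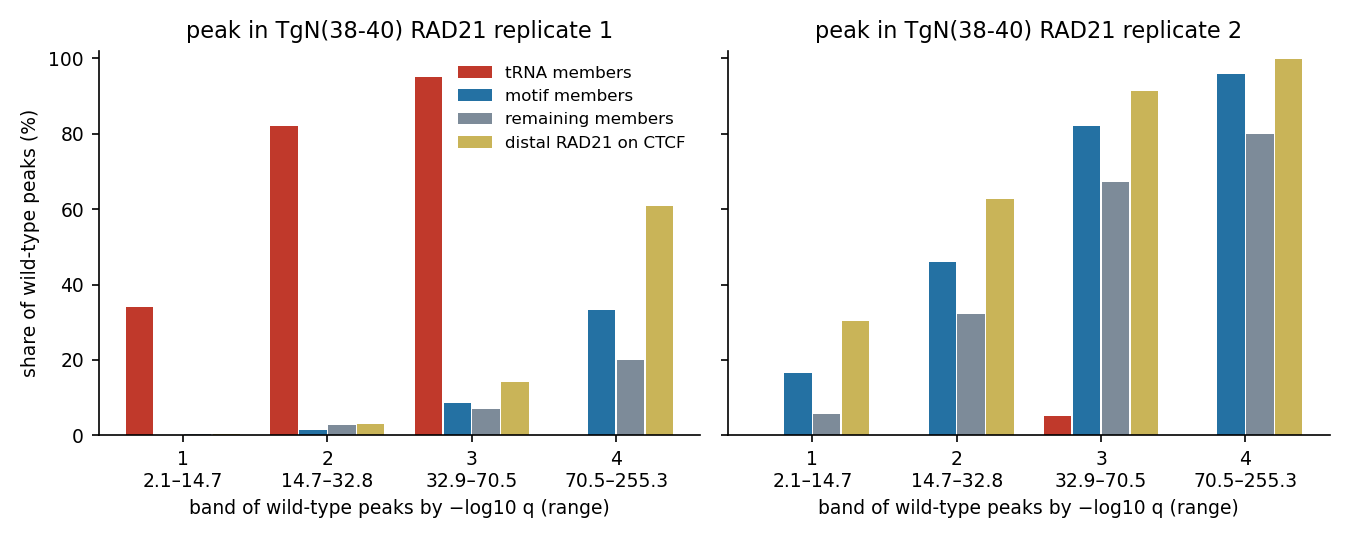
Share of wild-type RAD21 peaks (%) that overlapped a peak of TgN(38-40) RAD21 replicate 1 (left) or replicate 2 (right), by band of wild-type -log10 q, for tRNA members, motif members, remaining members and distal peaks on CTCF. tRNA members stand highest in replicate 1, at 34.1%, 82.1% and 95% in the first 3 bands, and at most 5% in replicate 2; the strongest band holds no tRNA member.

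At tRNA members the 2 RAD21 replicates stood the other way round. Of these 100 members, 65 overlapped a peak of replicate 1 and 1 overlapped a peak of replicate 2, although the list of replicate 2 was the longer. They made up 52.4% of all members with a replicate 1 peak and 0.123% of those with a replicate 2 peak. A tRNA gene lay under 3.28% of members and under a similar 3.06% of peaks at gene starts away from CTCF. The share was 0.0779% at distal peaks on CTCF and 0.683% over all autosomal wild-type RAD21 peaks. Without the tRNA members, replicate 1 had a peak at 59 of 2948 members, or 2.00%, and 46 of those 59 also had a replicate 2 peak.

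The same contrast was seen from the side of the genes. Of 386 autosomal tRNA genes, 106 had a peak in RAD21 replicate 1 of TgN(38-40) limbs, 2 in RAD21 replicate 2 and 155 in wild-type limbs. CTCF peaks covered 8 and 9 of them in the 2 CTCF replicates. Wild-type limbs had a peak at 103 of the 106 genes seen in replicate 1. In the custom genome lists the numbers were 117 for RAD21 replicate 1 and 2 for replicate 2, so the order of the 2 replicates was the same with both genomes. The cause of the difference between the RAD21 replicates at these genes was not tested.

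**Figure D3:**
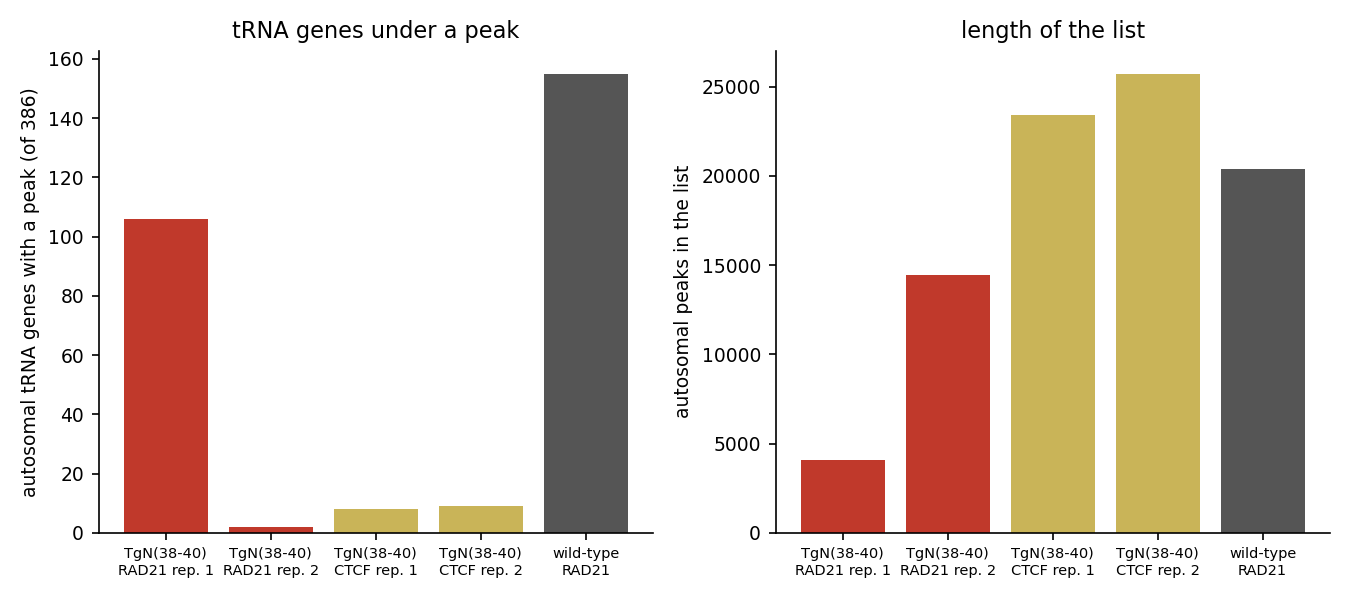
Number of the 386 autosomal tRNA genes under a peak (left) and number of autosomal peaks in the list (right) for the TgN(38-40) RAD21 and CTCF replicates and for wild-type RAD21. The list with 14459 peaks covers 2 tRNA genes, and the list with 4053 peaks covers 106.

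The tRNA members had folds around the middle of the replicate 1 list and below the middle of the wild-type list. The median was 5.91 at the 65 with a replicate 1 peak, against 6.13 over the replicate 1 list. In wild-type limbs it was 3.47 at all 100, against 4.57 over the wild-type list. By significance the replicate 1 peaks ranked higher. The 97 autosomal replicate 1 peaks at tRNA genes, members or not, had a median rank at percentile 75.3 of their list and a median fold of 6.51. The 139 wild-type peaks at tRNA genes had a median rank at percentile 39.5. Examples with high folds follow. The member at n-TRccg1, an arginine tRNA gene, reached 11.2-fold in RAD21 replicate 1, lacked a peak in RAD21 replicate 2, and reached 6.18-fold in wild-type limbs. At n-TVcac7, a valine tRNA gene near Trim41, the fold was 11.3 in RAD21 replicate 1 and 5.34 in wild-type limbs. At n-TLcaa1, a leucine tRNA gene, it was 9.34 in RAD21 replicate 1 and 5.74 in wild-type limbs. Folds of different lists are set side by side and not compared. Across the 65 members with a replicate 1 peak the replicate 1 fold ran between 4.03 and 11.3. The single member with a replicate 2 peak lay at n-TEttc6, a glutamate tRNA gene, at 5.75-fold in replicate 2 and 5.21-fold in wild-type limbs. That peak was 966 bp wide and also held a CTCF motif.

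The summits of tRNA members lay around the tRNA gene start, as the overlap that defined them largely fixes. A summit lay within 200 bp of the start in 93 of 100, and the median position was 3 bp upstream of it. The summit was upstream of the start in 59 and inside the tRNA gene in 20. The B box letters GGTTCGA, searched on both strands within 100 bp of the summit, were found in 68.0% of tRNA members, 0.322% of remaining members and 0.176% of motif members. Over all autosomal wild-type RAD21 peaks the share was 0.756%. These shares follow from the definition of the kinds, since 226 of the 386 autosomal tRNA genes hold the letters. By isotype, arginine led in number with 12 of 23 genes under members. Glycine followed with 9 of 28, serine with 8 of 22 and proline with 8 of 15. Over all isotypes, 109 of the 386 genes lay under members. Chromosome 13 held 37 of the tRNA members and chromosome 11 held 20, out of 105 and 47 tRNA genes on those chromosomes. Cysteine tRNA genes, the largest set with 57 genes, had 2 under members.

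Members with peaks in both TgN(38-40) replicates were led by sites with a CTCF motif. The strongest lay 89363 bp from the start of Shcbp1, a spindle-binding protein gene, with folds of 7.89 in replicate 1 and 14.8 in replicate 2 of TgN(38-40) limbs and 10.9 in wild-type limbs. It lay 67767 bp from the next CTCF peak. The member near Spink13 had folds of 6.22, 6.94 and 8.42 in the same order, the one near Capn13 5.03, 7.97 and 8.28, and the one near Eif3j2 5.64, 9.49 and 8.00. The next 11 by wild-type fold were nearest to Cenpq, Cdh23, Plxnc1, Lmo7, Smndc1, Upp2, Map3k13, Sqle, Myl12b, Vti1a and Gulp1. All 15 held a motif, with wild-type folds of 6.68 or more.

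The other members among the 10 with the highest wild-type fold had a peak in replicate 2 only. They lay near Snx20, Il5ra, Pik3c3, Wdr89, Slitrk6 and Lca5, with replicate 2 folds between 5.26 and 9.68 and wild-type folds between 7.65 and 8.98. The Pik3c3 member was the exception in sequence and in place. It had no motif (best score -2.35), lay 1547374 bp from the nearest protein-coding gene start and 647073 bp from the nearest CTCF peak, and its fold was 6.71 in replicate 2 and 8.73 in wild-type limbs.

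Limb patterning genes were examined as a list of 91 genes of signalling and axis formation, of which 89 are autosomal and annotated. They were the nearest gene of 38 members, or 1.25% (95% exact binomial interval 0.884 to 1.71). The share was 0.824% at distal peaks on CTCF and 0.923% over all autosomal wild-type RAD21 peaks, and 1.04% of autosomal bases are nearest to these genes. The member share was thus near the background. Members were nearest to 26 of the 89 genes and to none of the other 63. By kind, 21 of the 38 were remaining members, 17 were motif members and none lay at a tRNA gene.

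The strongest of them lay beside homeobox and AP-2 genes and recurred in replicate 2. Near Tfap2b, an AP-2 transcription factor gene, a member 2499 bp from the gene start reached 8.22-fold in replicate 2 and 6.99-fold in wild-type limbs. Near Evx2, the even-skipped homeobox gene next to Hoxd13, a member 2426 bp away had 6.88 and 6.94, and near Evx1, its paralogue beside the HoxA cluster, one 7456 bp away had 6.07 and 6.29, again with replicate 2 before wild type. All 3 held a CTCF motif, shown in capitals below.
Tfap2b member (plus strand, chr1:19206354-19206412): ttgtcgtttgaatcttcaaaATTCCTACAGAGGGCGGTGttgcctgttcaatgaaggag
Evx2 member (minus strand, chr2:74661977-74662035): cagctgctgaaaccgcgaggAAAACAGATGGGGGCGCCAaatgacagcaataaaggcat
Evx1 member (plus strand, chr6:52306029-52306087): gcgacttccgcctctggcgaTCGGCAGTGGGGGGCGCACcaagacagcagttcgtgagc
The Tfap2b member ended 183 bp from a CTCF peak, the Evx2 member 1418 bp and the Evx1 member 35049 bp.

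Tfap2a, another AP-2 gene with roles in the limb ectoderm, had 2 members and neither held a motif. The one 10820 bp from the gene start had folds of 5.42 in replicate 1, 9.60 in replicate 2 and 4.99 in wild-type limbs. The one 15559 bp away, in an intron, had 6.13 in replicate 2 and 5.74 in wild-type limbs. Their best-scoring stretches are in capitals, with scores of -3.28 and 5.06.
Tfap2a member at 10820 bp (minus strand, chr13:40749178-40749236): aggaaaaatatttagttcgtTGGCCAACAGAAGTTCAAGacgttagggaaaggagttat
Tfap2a member at 15559 bp (minus strand, chr13:40722787-40722845): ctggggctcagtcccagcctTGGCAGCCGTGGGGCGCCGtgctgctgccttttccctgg
Of all 38 members at limb patterning genes, 7 had a replicate 2 peak and the Tfap2a member at 10820 bp alone had a replicate 1 peak. For comparison, replicate 2 had a peak at 26.6% of all members and at 114 of the 188 wild-type RAD21 peaks nearest to limb patterning genes.

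Gli3, the transcription factor that represses hedgehog targets in the anterior limb bud, had the most members. All 4 were weak, with wild-type folds between 2.42 and 2.61, and none held a motif. They lay between 250574 and 502472 bp from the nearest CTCF peak. The farthest from the gene start, at 410106 bp, also had a peak in replicate 2 with a fold of 4.89, and the nearest lay in the gene 1165 bp from its start. En1 (ventral ectoderm), Irx5 (an Iroquois factor) and Wnt5a (a growth signal of the limb) had 3 members each. Cyp26b1, which breaks down retinoic acid, and Tbx15, a T-box factor, had 2 each. None of these 13 members had a peak in either TgN(38-40) replicate, and their wild-type folds were between 2.00 and 4.43.

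**Figure D4:**
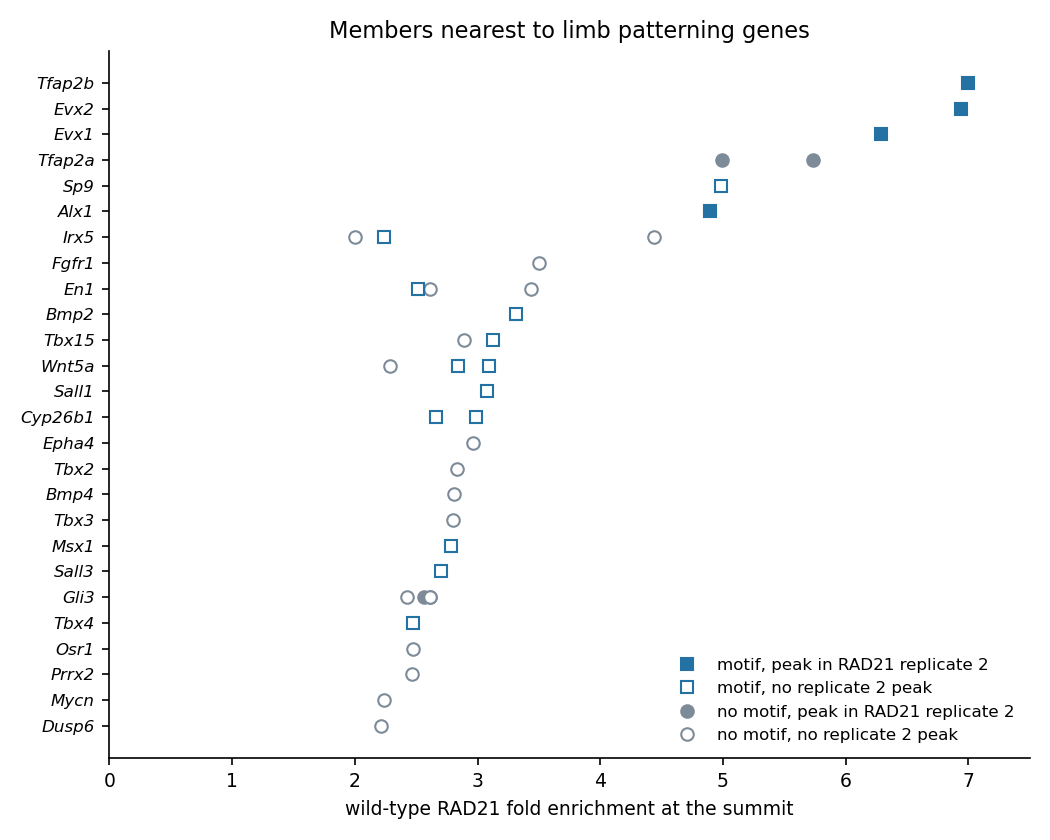
Wild-type RAD21 fold at the 38 members whose nearest protein-coding gene start is of a limb patterning gene, 1 line a gene. Squares hold a CTCF motif and circles do not, and filled symbols have a peak in TgN(38-40) RAD21 replicate 2. The 6 filled symbols from 4.90 upward lie at Tfap2b, Evx2, Evx1, Tfap2a and Alx1, and the highest open ones at Sp9 (4.98) and Irx5 (4.43).

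The limb loci of the study held few wild-type RAD21 peaks in all, and members are 15.0% of such peaks on the autosomes. Between Atp5g3 and Hnrnpa3 (chr2:73908447-75669407), the interval with the HoxD cluster and both of its regulatory landscapes, 22 wild-type RAD21 peaks were found. Of these, 18 lay on CTCF peaks and 1 was a member, the one beside Evx2. Region CS38-40 lies in this interval and is deleted in the embryos that gave the CTCF lists. Any CTCF peak within the deleted region thus came from the fosmid on chromosome 10. Lmbr1, whose intron holds the limb enhancer of Shh, had 2 wild-type RAD21 peaks, both on CTCF. Of the host region on chromosome 10, only the part left of the insertion was examined. It had 6 wild-type RAD21 peaks, of which 4 lay on CTCF and 1 was a member. That member, in a long non-coding RNA gene, had a wild-type fold of 2.80, no motif and no peak in either TgN(38-40) replicate.

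Shares at the other lists were small. Of 3048 members, 8 each were nearest to genes of cartilage and bone, of tendon and muscle, and of blood and vessels, and 2 to genes of the skin ectoderm. The member shares were 0.262%, 0.262%, 0.262% and 0.0656% in this order, against 0.412%, 0.211%, 0.128% and 0.054% over all autosomal wild-type RAD21 peaks. By nearest gene the cartilage and bone share was thus below that background and the others above it, on counts of 8 or fewer. With a list gene start within 100 kb instead, each member share was below that of all wild-type RAD21 peaks. The member shares were then 0.525%, 0.197%, 0.328% and 0.0656%, against 0.56%, 0.241%, 0.417% and 0.211%. The cartilage and bone genes were Pthlh and Trps1 with 2 members each, and Bmpr1b, Foxa2, Gdf6 and Runx1 with 1 each. The tendon and muscle genes were Msc with 3 members, Tcf7l2 with 2, and Mef2c, Pax3 and Tcf21 with 1 each. The blood and vessel genes were Cdh5 with 4 members, Ptprc with 2, and Fli1 and Pecam1 with 1 each. Grhl3 and Perp of the skin list had 1 each. Wild-type folds at all of these were at most 5.72, the value at Tcf21, whose member also had a replicate 2 peak.

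Outside the lists, members were spread over 2187 nearest genes, of which 1683 had 1 member. Sfi1, a centrosome gene on chromosome 11, had the most, with 24 of the 30 wild-type RAD21 peaks nearest to it. The next were Zfp608 on chromosome 18, Zfp978 and Gm13212 on chromosome 4, and Prl2c3 on chromosome 13, with 13 each. Zfp982, Vmn1r3 and Vmn1r2 had 9 each, and Zfp981 and Zfp990 had 8 each. Apart from Zfp608 and Sfi1, most of these belong to families with many related genes side by side, the zinc finger, prolactin-like and vomeronasal receptor genes.

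Members also formed dense groups. When neighbours separated by small gaps were joined, 53 groups of at least 3 members held 263 members. These members had a median wild-type fold of 2.55, against 3.08 at members outside the groups, and 2.28% of them had a replicate 2 peak, against 28.9%. In replicate 1 the order was the other way, at 11.0% against 3.41%, but 46 of the 263 were tRNA members. Without those 46, a replicate 1 peak was present at 1.38% of the group members and the median wild-type fold was 2.42. A motif was present in 6.46% of members in the groups, against 60.8% of members outside them. The largest group, 19 members over 37.8 kb at Sfi1 and Eif4enif1 (chr11:3161419-3199233), had 3 motif members and 2 with a replicate 2 peak. On chromosome 4, 14 members at Gm13212 and Zfp990, 10 at Zfp978 and Zfp982, 9 at Zfp979 and Zfp985, and 8 at Zfp981 held 1 motif in all and had no replicate 2 peak. Prl2c3 on chromosome 13 had a group of 9 without a motif or a peak in either replicate. The group of 9 at Abt1 and Btn1a1 (chr13:23436954-23467264) was different, since each of its members lay at a tRNA gene and 5 had a replicate 1 peak. The 7 members of the eighth group, at Zfp978, had no motif and no peak in either replicate.

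Repeated sequence was examined beside these groups. At least 50% of the bases around the summit were masked as repeats in 6.40% of members and 3.28% of distal peaks on CTCF, against 3.53% of all autosomal wild-type RAD21 peaks. Windows of 50 bases with more than 1 exact copy on the reference made up at least 50% of the summit region in 24 members, or 0.787%, against 0.123% of distal peaks on CTCF and 0.236% of all autosomal wild-type RAD21 peaks. Copies that differ by a base or that the reference lacks are not counted, so the part of copy number in the dense groups was not tested.

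Zfp608, a zinc finger gene that stands alone in a long interval, was a different case. No CTCF peak of either replicate lay between 54452471 and 56214879 on chromosome 18, a stretch of 1762 kb with 1 protein-coding gene start. All 18 wild-type RAD21 peaks in the stretch were members, with a median fold of 2.91. Of these, 4 held a CTCF motif and 1 had a replicate 2 peak, against 56.1% and 26.6% of all members. Over all autosomal wild-type RAD21 peaks the shares were 80.8% and 66.3%. That all 18 were members follows largely from the rule. No RAD21 peak there could overlap a CTCF peak, and only 1 gene start could exclude one. Among the 13 nearest to Zfp608, the strongest lay 557310 bp from the gene start with a fold of 3.94 and a motif score of 13.5. The weakest lay in an exon, 4423 bp from the start, with a fold of 2.13.

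**Figure D5:**
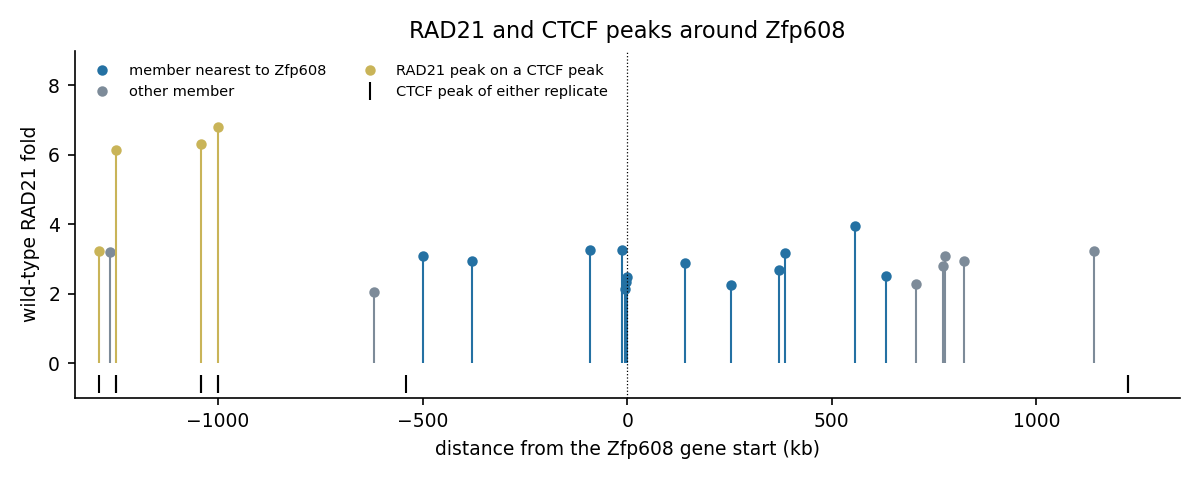
Wild-type RAD21 fold against distance from the Zfp608 gene start (kb, positive toward higher coordinates), for members nearest to Zfp608 (blue), other members (grey) and RAD21 peaks on CTCF (yellow), with CTCF peaks of either replicate as black ticks below 0. Members with folds between 2.13 and 3.94 fill the stretch without CTCF peaks, and the RAD21 peaks on CTCF outside it reach 6.79.

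Foxp1, a forkhead factor gene, had the same arrangement on a smaller scale. A stretch of 640 kb without a CTCF peak on chromosome 6 held 8 wild-type RAD21 peaks. All were members, again largely by the rule, 3 with a motif and 1 with a replicate 2 peak. The shares to set beside these counts are those given for the Zfp608 stretch. The strongest of the 7 nearest to Foxp1 lay in an intron with a wild-type fold of 4.34. These stretches were singled out after their values were seen. Most long stretches held none, since 391 of the 715 autosomal stretches of at least 500 kb without a CTCF peak had no member, and 601 members lay in the rest.

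By annotation, members were mostly intronic or intergenic. The summit lay in an exon of a protein-coding gene in 6.92% of members, in an intron in 36.7% and outside such genes in 56.3%. At distal peaks on CTCF the shares were 6.33%, 40.6% and 53.1% in the same order. Members lay farther from gene starts, with a median of 45537 bp against 29742 bp at distal peaks on CTCF, and 31.4% of members were more than 100 kb away, against 19.6%. The tRNA members lay closer, at a median of 13875 bp.

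Some members lay near starts of other transcripts. A start of any annotated transcript, non-coding RNAs and alternative starts included, lay within 1 kb of 13.3% of member summits, against 8.61% of distal peaks on CTCF and 17.9% of all autosomal wild-type RAD21 peaks, which include those at gene starts. By kind it was 18.8% of remaining members, 9.21% of motif members and 15.0% of tRNA members. The GC box letters GGGCGG, found on either strand within 100 bp of the summit, were present in 10.5% of remaining members, 4.99% of motif members and 6.22% of distal peaks on CTCF, and in 3.05% of flanks of the remaining members. Over all autosomal wild-type RAD21 peaks the share was 9.32%, near that of the remaining members. A match of these letters is a description and not a binding site.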

How the data were processed

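Peaks were called by the authors on each replicate with MACS2, after mapping to mm10 or to the custom TgN(38-40) genome. Tools named in the submitters' notes on processing are MACS2 2.1.1.20160309, Bowtie2 2.3.4.1 and 2.3.5, cutadapt 1.16, Picard 2.19 and SAMtools 1.9. The control used by MACS2 is not given in the sources used here. The deposited lists give a score, a fold enrichment (a ratio) and a significance as -log10 q-value, all as the authors computed them with MACS2. Every q-value was under 0.05. The wild-type RAD21 list has 5 value columns and belongs to no sample of the labels, so its values are those of 1 library. Inputs come without peak lists and were left out.

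Peaks were compared by overlap of at least 1 bp. Distances ran from the summit to gene starts of GENCODE M21 on GRCm38. tRNA and other small RNA genes came from RefSeq on the same assembly. A 19-base CTCF motif model was learned from CTCF peaks of replicate 2. These were the next 2000 below the 100 strongest on the autosomes, leaving out chromosomes 2 and 10 and any peak that overlapped a member. Its threshold was the score reached by 5% of windows 2 kb from the summits. Copies of 50-base windows were counted as exact matches on the reference. Shares have exact (Clopper-Pearson) binomial intervals, which cover counting error and treat peaks as independent. Depth is unknown, since no read counts were used here. Folds were not compared between lists, and no test was made because peaks are not replicates of a condition. Overlap, motif search and copy counting were tested on simulated data.

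Members and gene lists were chosen with earlier results of these data known. The tRNA class, the 3 kinds of members, the count of sequence copies, the stretches without CTCF peaks and the other motifs were chosen after the data were seen. Named sites were the 10 members with the highest wild-type fold, up to 15 with a peak in both TgN(38-40) replicates, the 10 genes with most members, up to 12 genes of each list, members of the HoxD, Lmbr1 and host regions, 2 peaks either side of each cutoff, and 8 dense groups (gaps of at most 12.5 kb). Ties within a list were settled by wild-type fold. The result of 1 other gene list is not reported here. Alternatives were stricter q-values, leaving out a CTCF replicate, other distances and overlaps, the custom genome lists, and other motif settings. The work used numba 0.67.0, pysam 0.24.0, pandas 2.3.3, numpy 2.4.6, matplotlib 3.10.9, scipy 1.17.1 and Python 3.11.15.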

Additional observations from a re-analysis of the deposited data

How the results depend on the processing

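The number of members, 3048, became 1851 with a wild-type -log10 q of at least 10 and 3609 to 4480 when 1 CTCF replicate was left out. Replicate 2 recurrence, 26.6%, was 29.2% and 40.4% at a -log10 q of at least 5 and 10, 31.2% to 38.1% without 1 CTCF replicate, 28.5% with every annotated transcript start excluded, 21.4% with reciprocal overlap of 50%, 22.2% in the custom genome list without chromosomes 2 and 10, and 28.9% without the dense groups. Replicate 1 recurrence, 4.07%, was 6.21% at a -log10 q of at least 10, 4.84% to 5.07% without 1 CTCF replicate, 2.43% with reciprocal overlap, and 2.00% without tRNA members. The motif share, 56.1%, was 60.2% and 68.8% at a -log10 q of at least 5 and 10, 59.0% to 64.6% without 1 CTCF replicate, 58.8% with every transcript start excluded, 54.1% with the custom genome CTCF lists excluded too, 60.8% without the dense groups, 35.9% at the score of 1% of flanks and 59.3% within 100 bp. In each case the member share stayed below the share over all wild-type RAD21 peaks. That share was recomputed for the q-value, custom genome, overlap and motif settings. For the other settings it was kept at its main value. The share nearest to limb genes, 1.25%, was 0.918% to 1.26% over 9 alternatives, all within its counting interval. Leaving out tRNA members or the dense groups was chosen after seeing the data. No paired analysis was possible because no result comes from a test. With 1 wild-type library and no read counts, a weak member cannot be told from a peak near the threshold.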

Other observations

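Other small RNA genes of RefSeq, some of them transcribed by RNA polymerase III, were looked up after the tRNA members had been seen. Both Y RNA genes that RefSeq annotates on the autosomes, Rny3 and Rny1, lay under members, with wild-type folds of 2.80 and 2.47 and no peak in either TgN(38-40) RAD21 replicate. Of 3 genes annotated as small cytoplasmic RNA, Rn7s2, a 7S RNA gene, was the one that lay under a member at 5.83-fold in RAD21 replicate 1, without a replicate 2 peak, and at 2.47-fold in wild-type limbs. Of 924 small nuclear RNA genes, 2 lay under members and 3 under any wild-type RAD21 peak, and the member at Gm25541 reached 6.44-fold in RAD21 replicate 1 and 4.92-fold in wild-type limbs. Of 1136 microRNA genes, 3 lay under members and 10 under any wild-type RAD21 peak, and 1 of the 3, Mir1983, is annotated at a tRNA gene. Of 1276 small nucleolar RNA genes, 1 lay under a member and 14 under any wild-type RAD21 peak. No member lay at the 4 RNase P RNA genes, the RNase MRP RNA gene (which was under a wild-type RAD21 peak), the 60 ribosomal RNA genes, the 37 guide RNA genes or the telomerase RNA gene. None of these members had a replicate 2 peak.

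Short motifs of transcription factors had lower shares at member summits than in windows 2 kb away for 4 of the 6 given here. The GC box, searched in the same way, was present in 7.48% of members and 2.95% of flanks. Letters were searched on both strands within 100 bp of the summit. The letters AGATAA of the factors named after GATA were present in 7.97% of members and 11.5% of flanks, the homeodomain letters TAATTA in 3.81% and 6%, the HOX13 letters TTTATGG in 2.03% and 2.92%, and the letters TGANTCA of AP-1 in 5.54% and 5.84%. The TEAD letters GGAATG were present in 11.0% of members and 10.5% of flanks, and the E-box letters CATCTG in 18.5% and 15.1%. Over all autosomal wild-type RAD21 peaks the shares were 7.29%, 3.57%, 2.06%, 4.87%, 10.5% and 17.0% in the same order. No test was made of these differences.

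Members were unevenly spread over chromosomes. They made up 22.1% of the wild-type RAD21 peaks of chromosome 13 and 19.6% of those of chromosome 4, against 10.2% on chromosome 7, the lowest share. Chromosome 4 held 14 of the 53 dense groups and chromosome 13 held 7.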
